A study of Mus musculus with 12 samples.

Results

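Transcripts of 43 Polycomb and Trithorax chromatin regulator genes were measured across 4 groups of cultured mouse bone marrow cells. The set was a list of genes for Polycomb repressive complex 1 (PRC1, 20 genes), Polycomb repressive complex 2 (PRC2, 11 genes), the COMPASS complexes (10 genes) and the H3K27 demethylases (2 genes). Every listed symbol matched 1 Ensembl gene identifier of the 41388 in the count tables, and all 43 were among the 13030 genes that had enough reads to be tested.

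The cells came from C57BL/6 mice and were grown for 5 days in alpha MEM with 10% FBS, then replated for 2 days. KO_OC and flox_OC cultures received 2% M-CSF and 50 ng/ml RANKL, the cytokine that drives macrophage precursors towards osteoclasts. KO_BMM and flox_BMM cultures received 2% M-CSF alone, which keeps bone marrow macrophages growing. KO stands for mice labelled LysM Cre positive, and flox for mice labelled Flox, which carry a floxed allele of Asxl2, a partner of the deubiquitinase BAP1. LysM Cre is driven by Lyz2, a lysozyme gene active in the myeloid lineage, so other cells in a culture may keep the allele. The labels describe no group with Cre and an intact Asxl2, and they do not name the floxed exons. Each group had 3 libraries, and since no label says that these came from separate mice or cultures, every p-value speaks only to the variation among the libraries sequenced.

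Polycomb proteins keep genes silent. PRC2 methylates histone H3 at lysine 27 through EZH1 or EZH2, and PRC1 ubiquitinates histone H2A through RING1 or RNF2. COMPASS complexes, the Trithorax counterpart, methylate histone H3 at lysine 4, and KDM6A and KDM6B remove the PRC2 mark. BAP1 with an ASXL protein removes the PRC1 mark, and KDM6B and EZH2 have both been studied as regulators of osteoclast formation from macrophages.

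Libraries held 18489873 to 21667237 counts, and levels are given as CPM, the count relative to the TMM-scaled library total, unless stated otherwise. Asxl2 had 15.1, 12.7 and 13.4 CPM in KO_OC against 75.6, 73.6 and 71.0 CPM in flox_OC. It had 14.9, 14.9 and 15.4 CPM in KO_BMM against 95.6, 94.0 and 89.7 CPM in flox_BMM. All KO libraries were thus below all flox libraries, with log2 fold changes of -2.42 in OC and -2.63 in BMM. Of the listed osteoclast markers, 7 of 8 were tested and all 7 rose with RANKL in both genotypes, while Calcr, the calcitonin receptor gene of mature osteoclasts, stayed below 1 CPM in every library. The summed CPM of the 8 was 378 to 395 in KO_OC, 741 to 763 in flox_OC, 204 to 208 in KO_BMM and 229 to 240 in flox_BMM. Between genotypes, all 7 tested were lower in KO in OC (100% called, beside 41.3% of all genes). In BMM 2 were higher and 3 lower in KO (71.4%, beside 39.9%).

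The share of the set that passed the test was close to that of all genes. Called changes of at least 0.5 were less frequent than among all genes, only slightly so with RANKL in KO cells. With RANKL in KO cells 32 of the 43 genes passed an adjusted p of 0.05 in edgeR's quasi-likelihood test, or 74.4%, beside 70.5% of all genes tested. With RANKL in flox cells 35 passed, or 81.4%, beside 74.8% of all genes. KO differed from flox for 16 genes in OC, or 37.2%, beside 41.3% of all genes, and for 19 in BMM, or 44.2%, beside 39.9%. Called changes of at least 0.5 on the log2 scale came to 14 genes (32.6%) with RANKL in KO cells, beside 33.5% of all genes, and 12 (27.9%) in flox cells, beside 40.5%. Between genotypes they came to 2 genes (4.65%) in OC, beside 10.3%, and 3 (6.98%) in BMM, beside 10.8%. In bulk cultures, fewer cells of a type and less RNA per cell cannot be told apart.

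**Figure D1:**
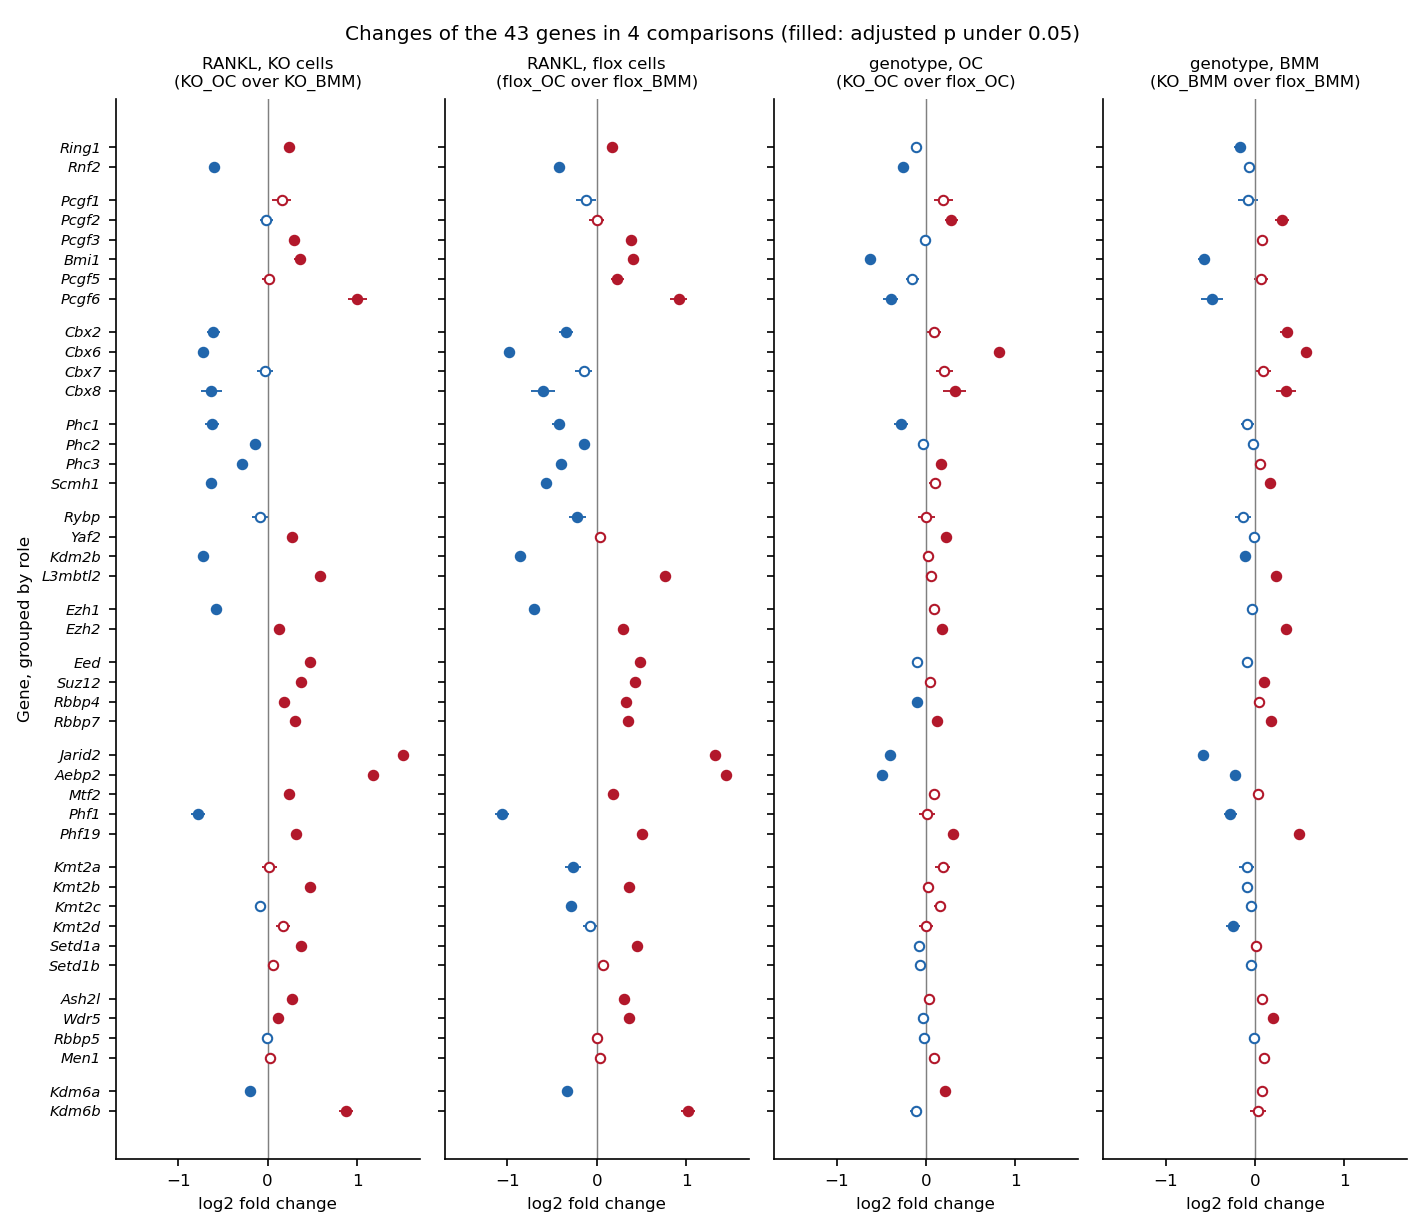
Log2 fold change of each of the 43 genes, grouped by role down the page, in 4 panels: OC over BMM for KO and then flox cells, and KO over flox for OC and then BMM cultures. Points are edgeR estimates with bars of 1 standard error, filled where the adjusted p was under 0.05, red above 0 and blue below; Jarid2 and Aebp2 lie farthest to the right in both RANKL panels, and Cbx6 in both genotype panels.

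PRC2 was the complex in which every gene passed the RANKL test. Of its 11 genes, 9 rose and 2 fell in KO cells, and 9 rose and 2 fell in flox cells. Among all genes tested, 35.5% rose and 35% fell with RANKL in KO cells, and 37% rose and 37.8% fell in flox cells. The largest rises were those of Jarid2 and Aebp2, and the genes that fell were Phf1 and Ezh1. JARID2 and AEBP2 define one form of PRC2 and help it engage chromatin, whereas PHF1, MTF2 and PHF19, the Polycomb-like proteins, define the alternative form.

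Promoters of Jarid2 and Aebp2 are shown because these accessory genes moved together in all 4 comparisons, and that of Phf19 because its genotype change ran the other way. Each is the 250 bases before an annotated RefSeq start on GRCm38.p6, read 5′ to 3′ on the gene's strand, and where a gene had several starts the window richest in CpG was taken. The windows are chr13:44730524-44730773 on the plus strand for Jarid2, chr6:140624659-140624908 on the plus strand for Aebp2 and chr2:34913977-34914226 on the minus strand for Phf19. Capitals mark every match to the searched motifs listed after the sequences.
Jarid2: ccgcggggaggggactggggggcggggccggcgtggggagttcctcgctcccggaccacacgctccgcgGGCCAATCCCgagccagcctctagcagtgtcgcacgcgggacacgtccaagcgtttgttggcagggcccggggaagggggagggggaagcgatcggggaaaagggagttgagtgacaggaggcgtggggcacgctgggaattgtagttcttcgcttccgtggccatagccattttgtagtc
Aebp2: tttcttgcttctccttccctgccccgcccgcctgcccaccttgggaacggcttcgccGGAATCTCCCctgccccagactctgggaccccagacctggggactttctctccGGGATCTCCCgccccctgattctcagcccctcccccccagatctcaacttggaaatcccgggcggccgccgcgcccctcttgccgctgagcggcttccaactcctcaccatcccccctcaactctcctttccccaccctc
Phf19: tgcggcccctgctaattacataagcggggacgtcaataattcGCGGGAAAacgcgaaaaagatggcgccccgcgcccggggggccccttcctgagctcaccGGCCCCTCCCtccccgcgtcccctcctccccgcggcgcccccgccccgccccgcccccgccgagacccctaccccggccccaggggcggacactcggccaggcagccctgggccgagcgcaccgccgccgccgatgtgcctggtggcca

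The Jarid2 window held 23 CpG and was 67.2% G and C, the Aebp2 window held 14 CpG at 66.4%, and the Phf19 window held 31 CpG at 75.2%. The median promoter window held 20 CpG among 49 windows of 35 genes of the set, and 6 among all 32851 windows. The capitals in Jarid2 are 1 match to the NF-kB motif, GGGA and CC with any 4 bases between them, searched on both strands, and those in Aebp2 are 2 matches to it. Those in Phf19 are 1 match to it and 1 match to an E2F motif (TTTGGCGC, TTTCGCGC or TTTCCCGC, both strands). The NF-kB motif was found in 17.6% of all windows and in at least 1 window of 13 of the 35 genes, and an E2F motif in 1.53% of all windows and in Phf19 and Suz12 of the set. The AP-1 motif TGANTCA was in 6.75% of all windows and, of the set, in Pcgf3 alone, the PU.1 motif GAGGAAG in 10.6% and in 4 genes, and the E-box CACGTG in 6.02% and in 8 genes. Gene counts and window shares are unlike measures, since a gene counts if any of its windows matched. The set's windows also had a median of 64.8% G and C, beside 52.4% for all windows. A match describes letters in a window and does not show that a factor binds there.

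Jarid2 (chromosome 13, 44729474 to 44921643, plus strand, GRCm38) had 191, 187 and 185 CPM in KO_OC and 243, 247 and 254 CPM in flox_OC. It had 67.6, 64.5 and 65.7 CPM in KO_BMM and 100.1, 97.8 and 99.3 CPM in flox_BMM. No group overlapped another, with both OC groups above both BMM groups and KO below flox within each culture. RANKL raised it 2.85-fold in KO cells (by 1.51 on the log2 scale, SE 0.033, edgeR adjusted p = 8.23e-38) and 2.5-fold in flox cells (by 1.32, SE 0.031, adjusted p = 1.08e-36). KO over flox, the log2 fold change was -0.40 in OC (SE 0.029, adjusted p = 2.9e-16) and -0.59 in BMM (SE 0.036, adjusted p = 5.84e-19).

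Aebp2 (chromosome 6, 140622449 to 140678472, plus strand) had 165, 165 and 169 CPM in KO_OC and 227, 243 and 230.1 CPM in flox_OC. It had 72.2, 71.9 and 75.4 CPM in KO_BMM and 85.3, 82.1 and 89.97 CPM in flox_BMM. The order of the groups was that of Jarid2, again with no overlap. RANKL raised Aebp2 2.27-fold in KO cells (by 1.18 on the log2 scale, SE 0.036, adjusted p = 3.83e-32) and 2.72-fold in flox cells (by 1.45, SE 0.035, adjusted p = 1.41e-36). The genotype difference was -0.49 in OC (SE 0.032, adjusted p = 4.85e-18) and -0.23 in BMM (SE 0.039, adjusted p = 3.23e-06).

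Phf19 (chromosome 2, 34893757 to 34914026, minus strand) had 68.9, 72.5 and 69.7 CPM in KO_OC and 56.3, 57.7 and 57.5 CPM in flox_OC. It had 55.2, 57.1 and 56.9 CPM in KO_BMM and 39.7, 38.9 and 42.0 CPM in flox_BMM. KO lay above flox in each culture without overlap, while flox_OC and KO_BMM overlapped. The genotype log2 fold change was 0.30 in OC (SE 0.039, adjusted p = 1.29e-08) and 0.49 in BMM (SE 0.044, edgeR adjusted p = 3.14e-13), and RANKL raised Phf19 by 0.32 in KO cells and 0.51 in flox cells.

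Phf1 had 9.73, 9.35 and 9.83 CPM in KO_OC and 10.6, 9.78 and 8.33 CPM in flox_OC. It had 16.1, 16.4 and 17.0 CPM in KO_BMM and 19.1, 20.9 and 19.9 CPM in flox_BMM. Every BMM library was above every OC library, and KO lay below flox in BMM but overlapped it in OC. With RANKL it fell by 0.77 on the log2 scale in KO cells (SE 0.079, edgeR adjusted p = 3.61e-12) and by 1.06 in flox cells (SE 0.077, adjusted p = 2.81e-17). The genotype difference was 0.0090 in OC (adjusted p = 0.95) and -0.28 in BMM (adjusted p = 0.00106). Mtf2, the remaining Polycomb-like gene, rose with RANKL by 0.24 in KO cells and 0.18 in flox cells and had no genotype call. Without flox_BMM replicate 2 the rise of Mtf2 in flox cells was 0.13 (adjusted p = 0.056).

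Per length, the balance within the accessory subunits differed between all 4 groups. Jarid2 and Aebp2 together made up 61.4% ± 0.349 of the summed RPKM (CPM per kilobase of exon) of the 5 accessory genes in KO_OC, 71.2% ± 0.387 in flox_OC, 39.7% ± 0.767 in KO_BMM and 48.4% ± 0.434 in flox_BMM (SD, n = 3 each). No group's range overlapped another's. Phf1 alone made up 6.12% ± 0.170 in KO_OC, 5.16% ± 0.653 in flox_OC, 17.0% ± 0.136 in KO_BMM and 19.2% ± 1.11 in flox_BMM.

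**Figure D2:**
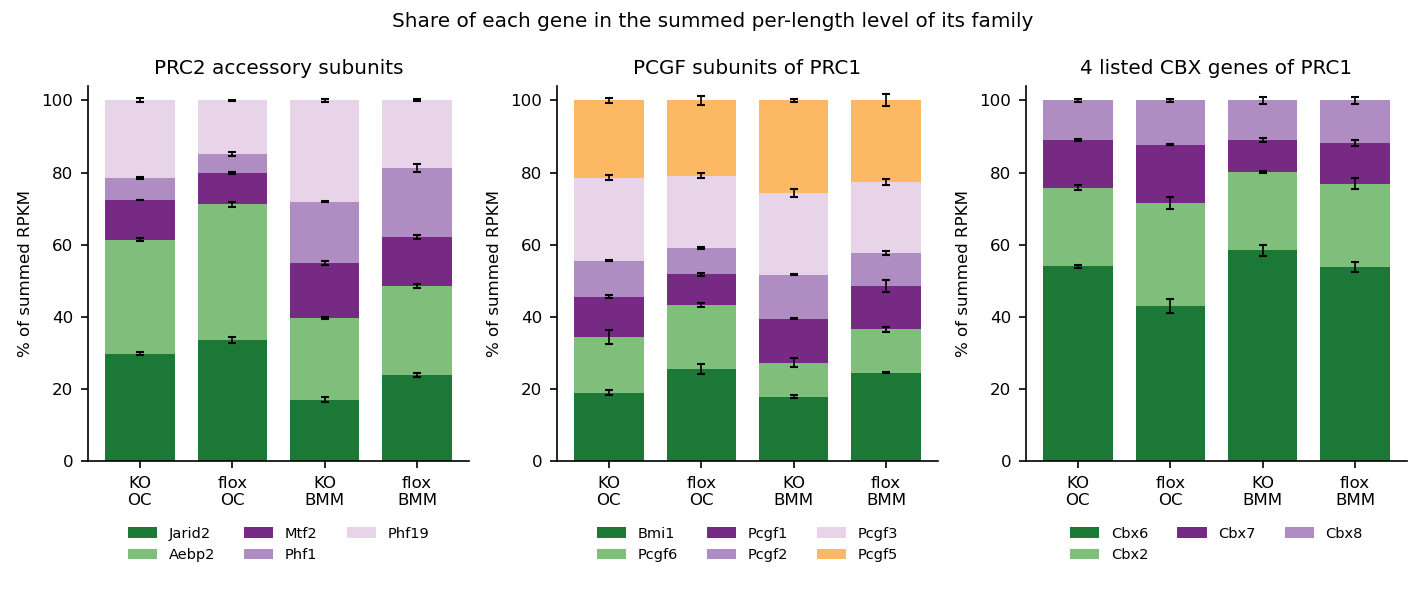
Mean share (in %) of each gene in the summed RPKM of its family in the 4 groups, for the 5 accessory subunits of PRC2, the 6 PCGF genes and the 4 listed CBX genes of PRC1; each bar at the top of a segment is 1 SD of that gene's own share over 3 libraries. The green segments of the first panel, Jarid2 and Aebp2, reach 61.4% in KO_OC, 71.2% in flox_OC, 39.7% in KO_BMM and 48.4% in flox_BMM.

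The catalytic subunits of PRC2 moved in opposite directions with RANKL. Ezh2, the methyltransferase of dividing cells, averaged 96.4 ± 2.80 CPM in KO_OC, 85.2 ± 2.57 in flox_OC, 88.6 ± 3.58 in KO_BMM and 69.6 ± 6.08 in flox_BMM (SD, n = 3 each). Ezh1, its paralogue with a larger part in resting cells, averaged 52.9 ± 1.44 CPM in KO_OC, 49.7 ± 3.40 in flox_OC, 79.1 ± 2.52 in KO_BMM and 80.6 ± 4.76 in flox_BMM. Ezh1 fell by 0.58 in KO cells (adjusted p = 9.98e-16) and by 0.70 in flox cells (edgeR adjusted p = 1.73e-18) and had no genotype call. Ezh2 rose with RANKL by 0.12 in KO cells (adjusted p = 0.0106) and by 0.29 in flox cells (adjusted p = 3.44e-07). The Ezh2 call in KO cells was lost without KO_BMM replicate 3 (0.083, adjusted p = 0.117) or KO_OC replicate 2 (0.094, adjusted p = 0.0825). Ezh2 was also higher in KO than in flox, by 0.18 in OC (adjusted p = 0.00073) and 0.35 in BMM (adjusted p = 4.04e-08). Per length, Ezh1 made up 31.4% ± 0.957 of the 2 genes' RPKM in KO_OC, 32.7% ± 1.47 in flox_OC, 42.6% ± 1.41 in KO_BMM and 49.1% ± 1.07 in flox_BMM (SD, n = 3 each).

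The summed level of the proliferation list was, like Ezh2, highest in KO_OC and lowest in flox_BMM. It was 4239 to 4330 CPM in KO_OC, 3803 to 3850 in flox_OC, 3747 to 3867 in KO_BMM and 2833 to 2962 in flox_BMM, and each of its 14 genes exceeded 1 CPM in at least 1 library. Of these 14, 11 rose and 1 fell with RANKL in KO cells, and 13 rose and 1 fell in flox cells, beside 35.5% of all genes up in KO cells and 37% in flox cells. Between genotypes 7 were higher and 3 lower in KO in OC, and 9 higher and 4 lower in BMM, beside 21.4% of all genes higher in OC and 19.3% in BMM. The part of these genes in the Ezh2 and Phf19 results was not tested.

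The 4 core subunit genes all rose in both genotypes (100%, beside 35.5% of all genes up in KO cells and 37% in flox cells). The median absolute log2 change of all genes was 0.34 in KO cells and 0.41 in flox cells, so these rises were of ordinary size. Eed, whose protein reads the H3K27 mark, rose by 0.47 in KO cells and 0.48 in flox cells, and Suz12, the scaffold, by 0.38 in KO cells and 0.43 in flox cells. The histone chaperone genes Rbbp4 and Rbbp7, shared with other chromatin complexes, rose by 0.18 and 0.30 in KO cells and by 0.32 and 0.35 in flox cells. Rbbp7 had the highest per-length level of the whole set in every group, at 88.9 ± 1.13 RPKM in KO_OC, 81.5 ± 1.27 in flox_OC, 72.1 ± 0.526 in KO_BMM and 63.8 ± 0.790 in flox_BMM (SD, n = 3 each). KO exceeded flox for Rbbp7 in OC (0.12, edgeR adjusted p = 0.00025) and in BMM (0.18, adjusted p = 1.81e-06). Eed and Rbbp4 shared 10.6% and 18.05% of their exonic bases with other annotated genes, which unstranded counting cannot separate.

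The PRC1 genes were split with RANKL. Of the 20, 6 rose and 9 fell in KO cells (75% called, beside 70.5% of all genes), and 6 rose and 10 fell in flox cells (80%, beside 74.8%). When libraries were scaled by their totals alone, 7 rose and 8 fell in each genotype. Of the E3 ligase genes, Ring1 rose by 0.23 in KO cells and 0.17 in flox cells, and Rnf2 fell by 0.60 in KO cells and 0.42 in flox cells. Ring1 made up 62.0% ± 2.10 of their summed RPKM in KO_OC, 59.5% ± 0.923 in flox_OC, 47.5% ± 1.58 in KO_BMM and 49.3% ± 2.48 in flox_BMM (SD, n = 3 each). The OC ranges lay above the BMM ranges, and the genotypes overlapped in BMM but not in OC.

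Of the 6 PCGF genes, whose proteins define the kinds of PRC1, 3 rose with RANKL in KO cells (Pcgf3, Bmi1 and Pcgf6) and 4 in flox cells (those 3 and Pcgf5), and the others did not pass in edgeR. That is 50% in KO cells, beside 70.5% of all genes called, and 66.7% in flox cells, beside 74.8%. The Pcgf5 call was lost without flox_BMM replicate 3 (0.16, adjusted p = 0.0786). Bmi1, which encodes a PCGF protein of canonical PRC1 and a regulator of stem cell self-renewal, had 29.2, 29.2 and 28.1 CPM in KO_OC and 41.9, 43.01 and 48.4 CPM in flox_OC. It had 23.4, 23.0 and 21.2 CPM in KO_BMM and 35.3, 32.6 and 32.7 CPM in flox_BMM. All KO libraries were below all flox libraries, KO_OC included against flox_BMM. The genotype log2 fold change was -0.62 in OC (SE 0.053, adjusted p = 7.63e-14) and -0.57 in BMM (SE 0.06, edgeR adjusted p = 3.17e-11), and RANKL raised Bmi1 by 0.36 in KO cells and 0.41 in flox cells.

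Pcgf6 belongs to the variant PRC1 that also holds L3MBTL2. It had 10.5, 14.3 and 12.3 CPM in KO_OC and 16.3, 16.5 and 16.1 CPM in flox_OC, and 7.49, 5.68 and 5.52 CPM in KO_BMM and 9.53, 7.88 and 8.58 CPM in flox_BMM. KO lay below flox in both cultures without overlap, by -0.40 in OC (SE 0.087, adjusted p = 0.0003) and -0.48 in BMM (SE 0.12, edgeR adjusted p = 0.00116). RANKL raised it by 1.00 in KO cells (adjusted p = 1.54e-10) and 0.92 in flox cells (adjusted p = 6.19e-11). L3mbtl2 rose as well, by 0.59 in KO cells and 0.76 in flox cells. Between genotypes it did not pass in OC (0.062, adjusted p = 0.234) and was higher in KO in BMM (0.23, adjusted p = 9.76e-05). Chadl overlaps 17.2% of the exonic bases of L3mbtl2.

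Pcgf2, the close paralogue of Bmi1, averaged 13.5 ± 0.611 CPM in KO_OC and 11.0 ± 0.616 in flox_OC, and 13.6 ± 0.677 in KO_BMM and 11.0 ± 0.446 in flox_BMM (SD, n = 3 each). It was higher in KO by 0.29 in OC (adjusted p = 0.00226) and 0.30 in BMM (edgeR adjusted p = 0.00185), the opposite sign to Bmi1. Per length, Bmi1 made up 19.0% ± 0.656 of the PCGF sum in KO_OC, 25.5% ± 1.41 in flox_OC, 17.9% ± 0.465 in KO_BMM and 24.6% ± 0.0670 in flox_BMM, and the genotypes did not overlap in either culture. Pcgf1, whose protein works with KDM2B at CpG islands, was called in none of the 4 comparisons, with edgeR adjusted p values of 0.149 to 0.63.

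Called changes of the chromodomain genes, whose proteins read the H3K27 mark, were falls with RANKL and higher levels in KO. Of Cbx2, Cbx6, Cbx7 and Cbx8, 3 fell with RANKL in each genotype, and 2 were higher in KO in OC and 3 in BMM. The share called with RANKL was 75%, beside 70.5% of all genes in KO cells and 74.8% in flox cells. Between genotypes it was 50% in OC, beside 41.3% of all genes, and 75% in BMM, beside 39.9%. Cbx6 had 37.6, 38.7 and 38.7 CPM in KO_OC and 22.8, 20.9 and 21.4 CPM in flox_OC. It had 62.9, 64.3 and 63.0 CPM in KO_BMM and 38.5, 46.7 and 43.2 CPM in flox_BMM. KO lay above flox in each culture, and KO_OC overlapped flox_BMM. The genotype difference was 1.76-fold in OC (log2 0.82, SE 0.057, edgeR adjusted p = 7.82e-17) and 1.48-fold in BMM (0.56, SE 0.048, adjusted p = 4.86e-14). Cbx6 fell with RANKL by 0.73 in KO cells (adjusted p = 1.32e-18) and by 0.98 in flox cells (adjusted p = 8.09e-21). Npcd overlaps 8.95% of the exonic bases of Cbx6.

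Cbx2 had 10.7, 10.2 and 10.5 CPM in KO_OC and 9.20, 10.3 and 9.99 CPM in flox_OC, which overlapped. It had 15.5, 15.8 and 16.4 CPM in KO_BMM and 12.2, 12.6 and 12.5 CPM in flox_BMM, which did not (log2 fold change 0.36, SE 0.073, edgeR adjusted p = 8.15e-05). Cbx8 had the lowest per-length level of the set in OC, 1.23 ± 0.0424 RPKM in KO_OC and 0.987 ± 0.0383 in flox_OC (SD, n = 3 each). Its counts came to 4.41, 4.70 and 4.46 CPM in KO_OC and 3.47, 3.65 and 3.75 CPM in flox_OC, and 6.30, 6.84 and 7.80 CPM in KO_BMM and 4.59, 5.87 and 6.00 CPM in flox_BMM. KO lay above flox each time, but the calls (0.32 in OC, edgeR adjusted p = 0.0486, and 0.35 in BMM, adjusted p = 0.0117) were lost with DESeq2 (adjusted p = 0.172 in OC and 0.0829 in BMM). Leaving out any of the 6 OC libraries ended the OC call of Cbx8, and leaving out flox_BMM replicate 1 or KO_BMM replicate 3 ended its BMM call. Cbx7 was called in none of the 4 comparisons.

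The polyhomeotic genes Phc1, Phc2 and Phc3, whose proteins join PRC1 units into larger assemblies, and Scmh1, a related subunit gene, all fell with RANKL in both genotypes. Of these 4, 100% were called in each genotype, beside 70.5% of all genes in KO cells and 74.8% in flox cells. The falls were 0.62, 0.14, 0.28 and 0.64 in KO cells and 0.42, 0.14, 0.40 and 0.57 in flox cells, and under scaling by library totals Phc2 came to -0.0094 in KO cells and turned to 0.031 in flox cells, with neither called. Between genotypes in OC, Phc1 was lower in KO (-0.28, edgeR adjusted p = 0.00388) and Phc3 higher (0.17, adjusted p = 0.000825). In BMM, Scmh1 was higher in KO (0.17, adjusted p = 0.0106), a call lost without KO_BMM replicate 3 (adjusted p = 0.0517) or flox_BMM replicate 1 (0.134) and with DESeq2 (0.0504).

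Among the genes of variant PRC1, Kdm2b, whose protein binds unmethylated CpG islands, had 36.8, 38.3 and 37.4 CPM in KO_OC and 37.2, 37.8 and 35.8 CPM in flox_OC. It had 59.7, 62.7 and 63.5 CPM in KO_BMM and 69.5, 68.7 and 63.7 CPM in flox_BMM. The OC groups overlapped each other and lay far below the BMM groups, which adjoined without overlap. KO was below flox in BMM by a log2 fold change of -0.12 (adjusted p = 0.0194), a call lost under scaling by library totals (-0.082, adjusted p = 0.105) and with DESeq2 (adjusted p = 0.108). It was also lost without KO_BMM replicate 1 (adjusted p = 0.12) and without flox_BMM replicate 1 (0.119) or 2 (0.0997). Kdm2b fell with RANKL by 0.73 in KO cells (SE 0.045, adjusted p = 8.82e-20) and by 0.86 in flox cells (SE 0.044, edgeR adjusted p = 6.22e-23). Yaf2 and Rybp encode paralogues that take the place of a CBX protein. Rybp was not called in KO cells (-0.081, adjusted p = 0.452) and fell by 0.22 in flox cells (adjusted p = 0.0324). That call of Rybp was lost under scaling by library totals (-0.049), with DESeq2 (adjusted p = 0.132), in a fit of the 2 groups alone (0.0564) and without flox_OC replicate 1 (adjusted p = 0.17), flox_OC replicate 2 (0.154) or flox_BMM replicate 1 (0.169). Yaf2 rose by 0.28 in KO cells (adjusted p = 2.36e-05) and was not called in flox cells (0.037, adjusted p = 0.57).

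**Figure D3:**
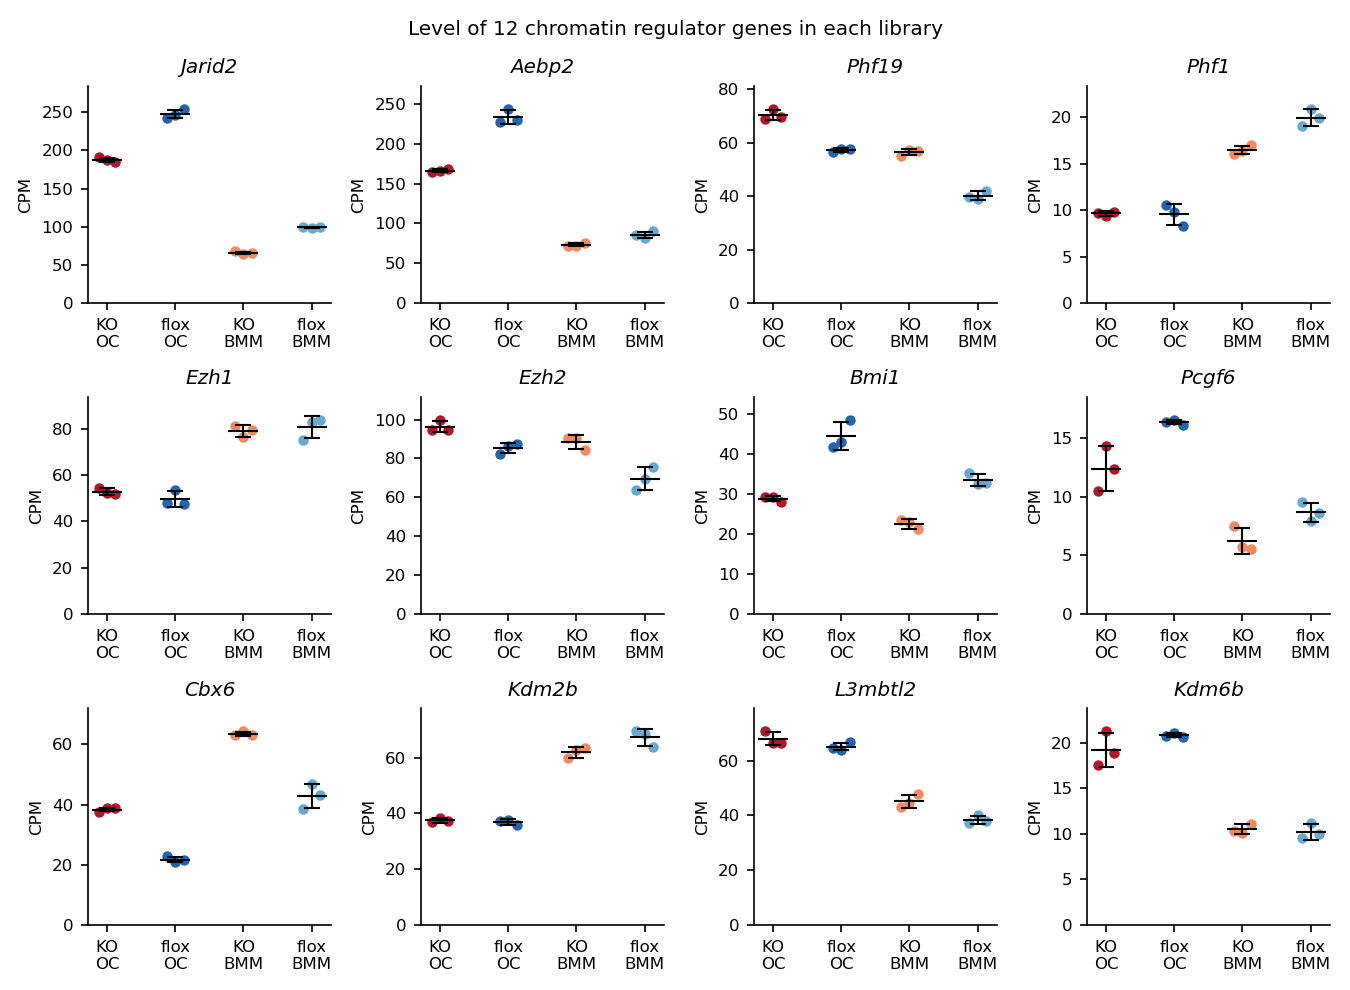
CPM of 12 genes of the set in each of the 12 libraries, from left to right KO_OC, flox_OC, KO_BMM and flox_BMM; points are libraries, and lines the mean and SD of 3. Jarid2, Aebp2, Pcgf6 and Kdm6b are higher in OC than in BMM, Phf1, Ezh1, Cbx6 and Kdm2b lower within each genotype, and Bmi1 is lower in all KO than in all flox libraries.

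Changes of the COMPASS genes were small, at most 0.47 on the log2 scale. Of the 10, 4 rose with RANKL in KO cells (40% called, beside 70.5% of all genes). In flox cells 4 rose and 2 fell (60%, beside 74.8%). The methyltransferase genes Kmt2b and Setd1a rose in both genotypes, by 0.47 and 0.37 in KO cells and by 0.37 and 0.46 in flox cells. Hsd3b7 overlaps 51.8% of the exonic bases of Setd1a, so its counts are uncertain. The shared subunit genes Ash2l and Wdr5 rose too, by 0.27 and 0.11 in KO cells and by 0.31 and 0.36 in flox cells. The Wdr5 call in KO cells was lost without KO_BMM replicate 1 (0.093, adjusted p = 0.052) or 2 (0.089, adjusted p = 0.066). Kmt2a (-0.27, edgeR adjusted p = 0.0165) and Kmt2c (-0.29, adjusted p = 0.00061) fell in flox cells, and neither call held under scaling by library totals (-0.10 and -0.12). The Kmt2a call was also lost without flox_OC replicate 3 (adjusted p = 0.0503). Under that scaling 8 COMPASS genes rose in KO cells and 7 in flox cells.

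Between genotypes the COMPASS genes moved little, with 2 of 10 called in BMM (20%, beside 39.9% of all genes). In OC 0 of 10 passed in edgeR, beside 41.3% of all genes, and 1 had an unadjusted p under 0.05. Kmt2a (0.19 in edgeR, adjusted p = 0.11) and Kmt2c (0.16, adjusted p = 0.0567) passed with DESeq2 (adjusted p = 0.0203 for Kmt2a and 0.0457 for Kmt2c). In edgeR both passed with no low-count filter, with a replicate block and in a fit of the 2 groups alone, and Kmt2c also under scaling by library totals. Both passed without KO_BMM replicate 1 or 2, Kmt2a also without flox_BMM replicate 2 (adjusted p = 0.00438) and Kmt2c without flox_BMM replicate 3 (adjusted p = 0.00483). The range of the 10 log2 fold changes in OC was -0.076 to 0.19. In BMM, Wdr5 was higher in KO (0.20, edgeR adjusted p = 3.24e-05) and Kmt2d, whose protein methylates enhancers, lower (-0.25, adjusted p = 0.0351), a call lost under scaling by library totals (adjusted p = 0.0629) and in a fit of those 2 groups alone (0.0552). The Kmt2d call was also lost without KO_BMM replicate 3 (-0.26, adjusted p = 0.0665), flox_BMM replicate 2 (-0.18, adjusted p = 0.0737) or flox_BMM replicate 3 (-0.25, adjusted p = 0.0695). Rbbp5, Men1 and Setd1b were called in none of the 4 comparisons. Rbbp5, a core subunit of every COMPASS complex, had RPKM means of 19.8 in KO_OC, 20.2 in flox_OC, 19.9 in KO_BMM and 20.1 in flox_BMM.

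The H3K27 demethylase genes moved apart with RANKL. Kdm6b, an inducible enzyme of inflammatory macrophages, had 17.6, 21.3 and 18.9 CPM in KO_OC and 20.8, 21.1 and 20.7 CPM in flox_OC. It had 10.3, 10.1 and 11.1 CPM in KO_BMM and 9.53, 11.2 and 9.98 CPM in flox_BMM. Every OC library was above every BMM library, and the genotypes overlapped in both cultures. The rise was 0.87 in KO cells (SE 0.077, adjusted p = 3.27e-14) and 1.02 in flox cells (SE 0.077, edgeR adjusted p = 1.32e-16). Kdm6a, an X-linked gene whose protein also sits in the KMT2C and KMT2D complexes, fell by 0.20 in KO cells (adjusted p = 0.000267) and by 0.34 in flox cells (adjusted p = 7.61e-08). The fall in KO cells was not called under scaling by library totals (-0.068, adjusted p = 0.218). Kdm6a was higher in KO than flox in OC (0.21, adjusted p = 0.000611). Xist, the transcript of the inactive X chromosome, had at most 1 read in any library. Per length, Kdm6b made up 36.3% ± 2.47 of the pair's RPKM in KO_OC, 41.7% ± 0.564 in flox_OC, 21.3% ± 0.731 in KO_BMM and 21.8% ± 2.21 in flox_BMM (SD, n = 3 each).

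Comparing genotypes across both cultures, which share no library, 10 genes were called in both and all 10 in the same direction. That is 23.3% of the 43, beside 21.9% of all genes called in both in the same direction. Higher in KO were Pcgf2, Cbx6, Cbx8, Ezh2, Rbbp7 and Phf19, and lower were Bmi1, Pcgf6, Jarid2 and Aebp2. The remaining calls in OC were Phc3, Yaf2 and Kdm6a, higher in KO, and Rnf2 (-0.25), Phc1 and Rbbp4 (-0.10), lower. Those in BMM were Cbx2, Scmh1, L3mbtl2, Wdr5 and Suz12 (0.10), higher in KO, and Ring1 (-0.17), Kdm2b, Phf1 and Kmt2d, lower. The Suz12 call was lost without any 1 of 7 libraries, KO_BMM replicates 1 to 3 and flox_BMM replicate 2 among them, and the Ring1 call without KO_BMM replicate 1 (-0.13, adjusted p = 0.111) or flox_BMM replicate 2 (-0.12, adjusted p = 0.141). Both were also lost with DESeq2 (adjusted p = 0.117 for Suz12 and 0.0753 for Ring1). The calls in OC split into 9 higher and 7 lower in KO, and those in BMM into 11 higher and 8 lower, which became 14 and 5 under scaling by library totals. Among all genes, 21.4% were higher and 19.9% lower in OC, and 19.3% and 20.6% in BMM. Genes whose KO and flox libraries did not overlap numbered 26 of 43 in OC (60.5%, beside 51.3% of all genes) and 20 of 43 in BMM (46.5%, beside 46.6%).

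**Figure D4:**
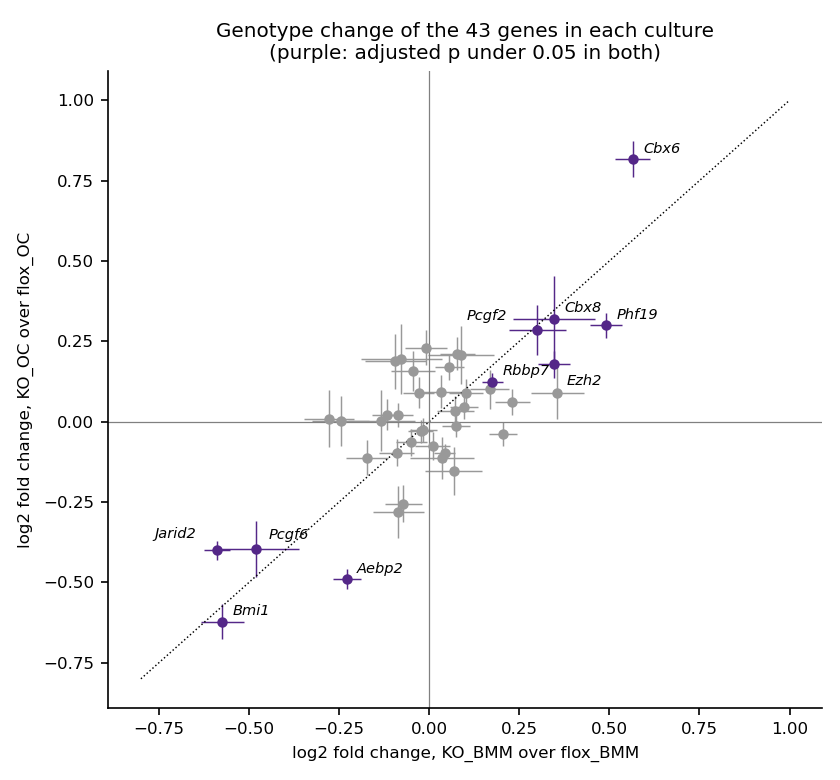
Log2 fold change of KO_OC over flox_OC (vertical axis) against that of KO_BMM over flox_BMM (horizontal axis) for the 43 genes, with bars of 1 standard error; purple, named points passed an adjusted p of 0.05 in both, and the dotted line marks equal change. Of the 10 purple points, 6 lie above 0 and 4 below 0 on both axes, with Cbx6 at 0.82 in OC and Bmi1 at -0.62.

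RANKL comparisons in the 2 genotypes likewise share no library with each other, but each shares a group with each genotype comparison. In them 31 genes were called in both and all 31 in the same direction, 19 up and 12 down, which is 72.1% of the set beside 62.3% of all genes. Genes called in no comparison of 2 groups were Pcgf1, Cbx7, Setd1b, Rbbp5 and Men1. The split in KO cells was 20 up and 12 down, and 25 up and 10 down under scaling by library totals. In flox cells it was 20 up and 15 down, and 24 up and 11 down under that scaling, which puts the median of all genes at 0.14 in KO and 0.16 in flox cells on the log2 scale. Genes whose OC and BMM libraries did not overlap numbered 34 of 43 in KO cells (79.1%, beside 73.4% of all genes) and 34 in flox cells (79.1%, beside 75.2%).

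The RANKL effect itself differed between genotypes for 9 genes, or 20.9%, beside 21.9% of all genes (more positive in KO cells for 3 and less for 6, beside 12.3% and 9.53% of all genes, and for 2 and 8 under scaling by library totals). Differences in the set ran from -0.26 to 0.29, whereas 4.37% of all genes had a called difference of at least 0.5. It was more positive in KO cells for Jarid2 (difference 0.19, SE 0.046, edgeR adjusted p = 0.0018), Cbx6 (0.25, SE 0.075, adjusted p = 0.0109) and Yaf2 (0.24, SE 0.081, adjusted p = 0.026). The Cbx6 difference was not called with DESeq2 (0.24, adjusted p = 0.0513) or without flox_BMM replicate 2 (0.17, adjusted p = 0.0996), nor that of Yaf2 with DESeq2 (adjusted p = 0.118), under scaling by library totals (0.21, adjusted p = 0.0567) or without KO_OC replicate 1 or 3, flox_OC replicate 3, KO_BMM replicate 1 or 3 or flox_BMM replicate 1 (0.17 to 0.23, adjusted p = 0.0531 to 0.132). It was less positive in KO cells for 6 genes, led by Aebp2 (-0.26, SE 0.05, adjusted p = 7.25e-05) and Wdr5 (-0.24, SE 0.054, adjusted p = 0.000642). Jarid2 and Aebp2 thus differed in opposite directions. Wdr5, whose protein presents histone H3 to the methyltransferases, had 85.6, 83.4 and 86.7 CPM in KO_OC and 86.9, 86.8 and 88.8 CPM in flox_OC, and 76.6, 76.6 and 83.04 CPM in KO_BMM and 68.2, 70.9 and 65.9 CPM in flox_BMM. The genotypes were apart in BMM and adjoined in OC, with flox_OC just above KO_OC. Yaf2 had 30.3, 29.5 and 30.3 CPM in KO_OC and 26.1, 25.7 and 25.0 CPM in flox_OC, against 23.6, 26.1 and 24.6 CPM in KO_BMM and 26.9, 24.2 and 23.9 CPM in flox_BMM. Only the KO_OC group stood clear of the other 3.

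Other genes of these pathways were counted on lists of partners, with values side by side. Of 23 tested genes on a list of PRC1 partners, which includes Wdr5 and the creatine kinase gene Ckb, no known subunit, 13 rose and 3 fell with RANKL in KO cells and 14 rose and 5 fell in flox cells. That is 69.6% called in KO cells, beside 70.5% of all genes, and 82.6% in flox cells, beside 74.8%. Between genotypes 2 of the 23 were higher and 3 lower in KO in OC (21.7% called, beside 41.3% of all genes). In BMM 3 were higher and 4 lower (30.4%, beside 39.9%). On that list, Bcorl1 was lower in KO in OC (-0.34) and in BMM (-0.47), while the largest called rise in OC was 0.86. Of 5 tested PRC2 partners 2 rose and 2 fell in each genotype (80% called, beside those same shares of all genes). Epop, an adaptor of the Polycomb-like form, was up by 1.05 in KO cells and 1.08 in flox cells. Of 11 COMPASS partners 8 rose and 1 fell in each genotype (81.8% called, beside 70.5% of all genes in KO cells and 74.8% in flox cells). The rises were led in both by Dpy30, a core subunit gene (0.49 in KO cells and 0.66 in flox cells). Of 20 tested SWI/SNF genes, whose complexes oppose Polycomb, 8 were higher and 1 lower in KO in OC (40% higher, beside 21.4% of all genes), and 9 were higher and 0 lower in BMM (45%, beside 19.3%). With RANKL, 10 of the 20 rose and 3 fell in KO cells (65% called, beside 70.5% of all genes). In flox cells 10 rose and 4 fell (70%, beside 74.8%). Unlike most called genes of the list, the ATPase gene Smarca2 fell, by 0.45 in KO cells and by 0.87 in flox cells. Of 10 tested genes around BAP1, Asxl2 included, 4 were higher and 1 lower in KO in OC (50% called, beside 41.3% of all genes). In BMM 4 were higher and 2 lower (60%, beside 39.9%). Asxl2 was the 1 lower in OC and among the 2 lower in BMM. As the targeted gene its call was set by the design, and it raises both shares. Of 5 H3K4 demethylase genes 1 was higher and 1 lower in KO in each culture (40% called, beside 41.3% of all genes in OC and 39.9% in BMM). Kdm5b was the lower one, with log2 fold changes of -0.79 in OC (edgeR adjusted p = 5.08e-07) and -0.91 in BMM (adjusted p = 6.8e-09).

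A list of 36 genes that Polycomb is known to silence held Hox genes, other transcription factor genes and cell cycle inhibitor genes. Of these 36, 27 stayed below 1 CPM in every library, 9 of them Hox genes without a read, and only 10 had enough reads to be tested. The inhibitor genes Cdkn1a, Cdkn1c, Cdkn2a and Cdkn2b were among the 10, so the counts are not of developmental genes alone. Of these 10, 2 were higher and 3 lower in KO in OC (50% called, beside 41.3% of all genes). In BMM 1 was higher and 3 lower in KO (40%, beside 39.9%). Summed levels of lists named for other cells also differed with genotype. Several of these sums rest on few genes, so they do not show which cells were present. The 7 stromal markers summed to 27.4 to 36.6 CPM in KO_OC, 93.6 to 97.0 in flox_OC, 34.1 to 38.8 in KO_BMM and 110 to 119 in flox_BMM, with all 6 tested lower in KO in both cultures and Pdgfra below 1 CPM throughout. That is 100%, beside 19.9% of all genes lower in KO in OC and 20.6% in BMM. The 5 megakaryocyte markers summed to 15.2 to 16.2 CPM in KO_OC, 134 to 141 in flox_OC, 48.0 to 52.1 in KO_BMM and 343 to 408 in flox_BMM, with Itga2b, Gp9 and Gp1bb below 1 CPM throughout. The 2 tested, Pf4 and Ppbp, were lower in KO in both cultures (100%, beside those same shares of all genes). The 7 neutrophil markers summed to 10.1 to 11.9 CPM in KO_OC, 33.5 to 35.4 in flox_OC, 25.9 to 27.9 in KO_BMM and 77.6 to 82.1 in flox_BMM, with Mpo, Elane and Camp below 1 CPM throughout. Of 4 tested, 3 were lower in KO in each culture (75%, beside those shares). The 5 T and NK cell markers summed to 40.4 to 44.8 CPM in KO_OC, 78.1 to 87.3 in flox_OC, 57.0 to 61.8 in KO_BMM and 97.3 to 99.7 in flox_BMM, with Cd3e and Cd8a below 1 CPM and Ncr1 at 0. Of the 2 tested, Cd4 and Il7r, 1 was lower in KO in OC (50%, beside 19.9% of all genes). The other had a log2 fold change of 0.22 there and was not called. In BMM both were lower (100%, beside 20.6%). The 5 macrophage markers summed to 4640 to 4695 CPM in KO_OC, 4789 to 4859 in flox_OC, 8412 to 8506 in KO_BMM and 9565 to 9782 in flox_BMM. Of these 5, 1 was higher and 2 lower in KO in OC (60% called, beside 41.3% of all genes). In BMM 2 were higher and 3 lower in KO (100%, beside 39.9%). The part of any of these marker lists in the results for the 43 genes was not tested.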

How the data were processed

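RNA-seq was analysed for 12 libraries, 3 in each of 4 groups taken from the sample titles. The deposited values are raw read counts per gene, and the authors applied no normalization to them. Per the submitters' processing notes, the aligner was STAR 2.0.4b and the genome GRCm38. Per the file headers, featureCounts 1.4.5-p1 counted exons by gene with Ensembl release 76 and strand setting 0, with no option named for reads that overlap several genes or align to several places. Counts of overlapping and antisense genes and of genes with close copies such as Rbbp4 and Rbbp7 are uncertain. RPKM used the deposited exon lengths. In 1 library, 3 counts correspond to 0.135 to 0.170 CPM on the TMM scale.

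Tests used the quasi-likelihood method of edgeR 4.0.16 (in R 4.3.3) with TMM scaling on 13030 genes and all 12 libraries, adjusted by Benjamini-Hochberg over all genes. An adjusted p under 0.05 was called, and the script was tested on simulated data. Replicates differed beyond sampling noise, with a chi-square of 1.25 to 5.22 for each degree of freedom. Alternatives were other scalings, no low-count filter, a replicate block, fits on 2 groups, DESeq2 1.42.0 and leaving out each library. The 43 genes and all lists were chosen with earlier results of these data known, and 1 list of cell markers is not reported here. Values per library are given for called genes with at least 1 CPM and the largest changes, up to 6 in each comparison of 2 groups and 4 for the difference of RANKL effects, and other genes by group; Ezh1, Ezh2, L3mbtl2 and Pcgf2 were described further after their values were seen. Promoters come from RefSeq on GRCm38.p6, which gave windows for 35 of the 43 genes.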

Additional observations from a re-analysis of the deposited data

Results flagged for a closer look

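For 9 genes the RANKL effect differed between genotypes in edgeR's interaction test. Values are the log2 change with RANKL in KO cells minus that in flox cells. The difference was -0.26 for Aebp2, -0.24 for Wdr5, -0.19 for Phf19, -0.17 for L3mbtl2, -0.17 for Ezh2 and -0.14 for Rbbp4. It was 0.19 for Jarid2, 0.24 for Yaf2 and 0.25 for Cbx6. Of the 9, 8 were called in the same direction in both genotypes, and Yaf2 was called in KO cells and not in flox cells. Of 17 alternatives, the call was lost under 11 for L3mbtl2, 9 for Ezh2, 8 for Yaf2 and 2 for Cbx6. DESeq2 was among them for each of these genes, with adjusted p = 0.108 for L3mbtl2 and 0.0728 for Ezh2.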

How the results depend on the processing

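Over the 5 comparisons 111 calls were made for the 43 genes, and 90 held under every alternative tried. Lost under at least 1 were, between genotypes, Cbx8 in OC and Cbx8, Kdm2b, Kmt2d, Ring1, Scmh1 and Suz12 in BMM. With RANKL, Ezh2, Kdm6a, Phc2 and Wdr5 were lost in KO cells and Kmt2a, Kmt2c, Mtf2, Pcgf5, Phc2 and Rybp in flox cells. Scaling by library totals left 5 genes lower in KO in BMM, and turned Rbbp5 with RANKL in KO cells to 0.13 and Phc2 with RANKL in flox cells to 0.031. With no low-count filter, the RANKL effect was more positive in KO for 5 genes, against 3. Leaving out 1 library at a time gave 8 to 11 genes higher and 7 to 8 lower in KO in OC, and 8 to 12 higher and 5 to 9 lower in BMM (5 without flox_BMM replicate 2). For RANKL it gave 19 to 21 up and 12 to 13 down in KO cells, 19 to 20 up and 14 to 15 down in flox cells, and for the difference 2 to 5 higher (5 without flox_BMM replicate 3 or KO_BMM replicate 2) and 4 to 6 lower. The cause was not tested. DESeq2 called 8 higher and 6 lower in BMM and 2 higher and 4 lower for the difference. Same-numbered libraries were not correlated (pair correlations -0.035 to 0.040). With 3 libraries in each group, these correlations cannot decide whether the numbers mark pairs. With a replicate block the counts were 11 and 7 in OC and 11 and 8 in BMM. They were 21 and 12 with RANKL in KO cells, 20 and 15 in flox cells and 4 and 5 for the difference.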
